A study of Mus musculus with 5 samples.

Results

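The class II antigen presentation genes Cd74, H2-Eb1 and H2-Ab1 and the myeloid genes Lyz2, Fcer1g and Il1b were followed through 4 libraries of sorted mouse CD4 T cells. These 6 genes, of 10288 with a count in any library, were chosen by their measured CPM in the 2 libraries from light-treated animals, so their difference between those libraries is a description and supports nothing. Mice with autoimmune colitis gave the cells, from colon or lymph node, and the 3′ ends of their polyadenylated RNA were sequenced with sample barcodes of 7 bases and molecular identifiers of 8. Each tissue has a control library and a library from animals given laser light (wavelength 980 nm, 1.22 W, duty 80%, spot area 4 cm2, sessions of 5 minutes with an interval of 2 days), here called illuminated. The 4 groups are thus control colon, illuminated colon, control node and illuminated node, whose plot labels are control or light after the tissue. Every group holds 1 library, so differences have no replicates behind them and no p-values are given. The labels give neither strain, age nor the number of animals in a library, and the controls share the colitis.

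MHC class II molecules are pairs of an alpha and a beta chain that show peptides to CD4 T cells. H2-Ab1 and H2-Eb1 encode beta chains, and Cd74 encodes the invariant chain that guides class II molecules to the compartment where peptides are loaded. In mice these genes are characteristic of B cells, dendritic cells and macrophages, and mouse T cells normally express little of them. Lyz2 encodes lysozyme of macrophages and neutrophils, Fcer1g the signalling chain shared by several Fc receptors, and Il1b the cytokine interleukin-1 beta, which myeloid cells release during inflammation.

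On the mm10 build, H2-Ab1 lies on chromosome 17 at 34257689 to 34269419 and H2-Eb1 on the same chromosome at 34305867 to 34316674. Lyz2 lies on chromosome 10 at 117277331 to 117282321, Fcer1g on chromosome 1 at 171229572 to 171234365 and Il1b on chromosome 2 at 129364570 to 129371139. Class II promoters are known for an X box and a Y box that lie a short, conserved distance apart and are read by a shared set of factors. The stretches below run from 110 to 20 bases before the start of the gene in the RefSeq table (GRCm38.p6, each on its gene's strand) and are shown because the class II genes share a motif that the Il1b stretch does not hold. Capitals mark the X box (in H2-Eb1) and CTGATTGG (the Y box with flanking bases) in the class II genes, and the TATA box TATAAA in Il1b.
H2-Eb1, chr17:34305757-34305847, plus strand: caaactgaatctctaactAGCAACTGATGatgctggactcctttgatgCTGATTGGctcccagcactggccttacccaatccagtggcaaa
H2-Aa, chr17:34287843-34287933, minus strand: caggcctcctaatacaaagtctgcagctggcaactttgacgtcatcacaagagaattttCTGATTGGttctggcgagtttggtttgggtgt
Il1b, chr2:129371159-129371249, minus strand: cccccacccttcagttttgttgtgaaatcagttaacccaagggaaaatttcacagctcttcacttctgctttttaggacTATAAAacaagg
The table held promoters for 8 of 10 class II genes looked up (H2-Aa, H2-Eb1, H2-Eb2, H2-DMa, H2-DMb1, H2-DMb2, H2-Oa and H2-Ob, but not H2-Ab1 or Cd74). Both strands were searched over 250 bases before and 50 after the start. The short Y box ATTGG was found in all 8 class II promoters, and in 37.4% of all 32851 promoters. CTGATTGG, which contains it, was found in 4 of the 8 and in 4.10% of all. The X box, in the form capitalised in H2-Eb1 with the seventh base left free, was found in H2-Eb1 and H2-Eb2 and in 0.0700% of all, and a looser form that contains it, with the third base also free, in H2-DMb1 as well and in 0.298% of all. TATAAA was found in Il1b, 31 bases before its start, and in 13.6% of all. The PU.1 core GAGGAA, present in 28.3% of all promoters, was found in 1 of the 8 class II promoters, that of H2-DMb1. It was not among the letters of the Lyz2, Fcer1g, Il1b or H2-Eb1 windows. A match is a description of the letters and not of binding.

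The deposited counts summed to between 435847 (control colon) and 1959296 (illuminated colon). Barcode columns within a table share molecules, so the sums were divided by the number of columns per molecule, which gave 6180 (control colon), 39290 (illuminated colon), 11499 (control node) and 21214 (illuminated node) molecule-equivalents. Levels are counts scaled to a library total of 1000000 (CPM) with exact 95% Poisson intervals on molecule-equivalents, which cover counting error only. A floor of 3 molecule-equivalents stood at 485, 76.4, 261 and 141 CPM in the same order. T-cell identity genes took 0.0606% of counts in the control colon (5 of the 12 genes that could be measured had a count), whereas those 12 genes took 0.289% in the illuminated colon, 0.894% in the control node and 0.706% in the illuminated node. Left out of it were Cd4 and the Cd3d, Cd3e and Cd3g lines, which repeat the control node table by column position. Lines of the 6 genes were not repeated between tables: their correlation by column position lay between -0.10 and 0.097 over 24 pairs of lines.

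All 3 class II genes had their highest level in the illuminated colon. Cd74 stood at 219 CPM in the control colon (12.6 to 999), 609 CPM in the illuminated colon (390 to 907), 90.6 CPM in the control node (2.60 to 491) and 52.4 CPM in the illuminated node (1.82 to 272). Its illuminated colon interval overlapped those of the controls and not that of the illuminated node. H2-Eb1 had no count in the control colon, and stood at 556 CPM in the illuminated colon (348 to 843), 197 CPM in the control node (28.6 to 664) and 40.2 CPM in the illuminated node (0.591 to 251). H2-Ab1 also had no count in the control colon, and stood at 475 CPM in the illuminated colon (284 to 744), 194 CPM in the control node (27.5 to 659) and 66.4 CPM in the illuminated node (4.18 to 295). For both beta chains a count of 0 in the control colon allows up to 485 CPM by the floor, which is above the illuminated colon level of H2-Ab1, and up to 597 CPM by the 95% interval, which is also above that of H2-Eb1.

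Lyz2 was the myeloid gene with the clearest separation. It stood at 141 CPM in the control colon (2.21 to 865), 1198 CPM in the illuminated colon (880 to 1593) and 293 CPM in the illuminated node (110 to 629), with no count in the control node. The illuminated colon interval lay above each of the other intervals, and the 0 of the control node allows up to 261 CPM by the floor and 321 CPM by the 95% interval, above the illuminated node level. Lyz1, the paralog of Lyz2 with 96.0% identity over 1262 aligned transcript bases, had 15.8 CPM in the illuminated colon and no count elsewhere. Reads from the shared sequence may have been assigned to either copy, so the Lyz2 level is uncertain to that extent.

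Il1b stood at 168 CPM in the control colon (4.82 to 913), 603 CPM in the illuminated colon (385 to 900) and 57.1 CPM in the illuminated node (2.497 to 280), with no count in the control node. Its illuminated colon interval overlapped that of the control colon only. Fcer1g stood at 321 CPM in the control colon (38.2 to 1164), 459 CPM in the illuminated colon (272 to 725), 179 CPM in the control node (22.7 to 637) and 123 CPM in the illuminated node (21.4 to 385). Fcer1g was the most even of the 6, and its illuminated colon interval overlapped all of the others.

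**Figure D1:**
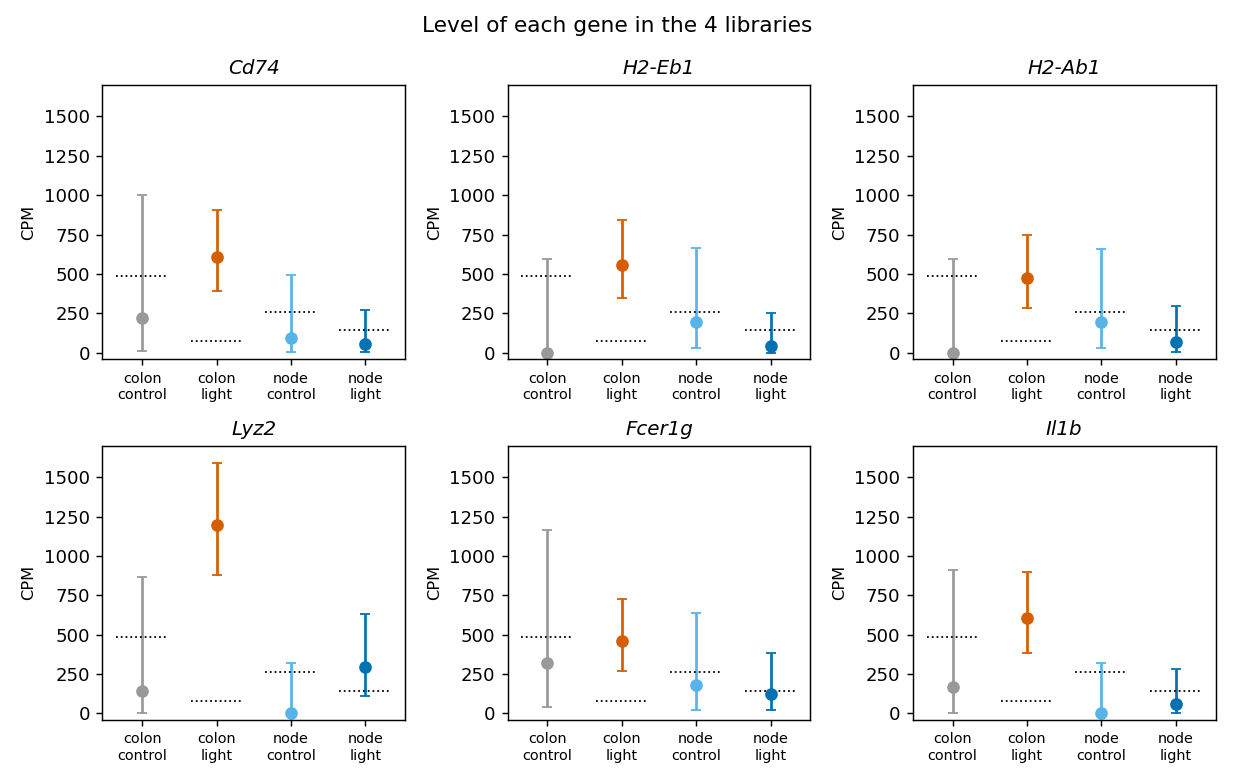
Level in CPM of each gene in the 4 libraries, 1 point per library, with exact 95% Poisson intervals on molecule-equivalents; the dotted lines mark the floor of 3 molecule-equivalents in each library. The illuminated colon points are the highest in every panel, and most other points lie under their floor.

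Few molecules carried these levels outside the illuminated colon. In that library Lyz2 rested on 47.1 molecule-equivalents, Cd74 on 23.9, Il1b on 23.7, H2-Eb1 on 21.8, H2-Ab1 on 18.6 and Fcer1g on 18.03. Of the 24 pairs of gene and library, 7 lay above the floor: the 6 in the illuminated colon and Lyz2 in the illuminated node, at 6.21 molecule-equivalents. The column patterns shared by other genes of a table allowed single molecules to be told apart for 19 of the 20 pairs with a count, within a miss of 5% of the line. In the control node they gave 1 molecule for Cd74 and 2 each for H2-Eb1, H2-Ab1 and Fcer1g, all solved exactly. In the illuminated node they gave 1 molecule for H2-Eb1 and for Il1b, 2 for Cd74 and for H2-Ab1, 3 for Fcer1g and 9 for Lyz2. The illuminated colon gave 28 molecules for Cd74, 24 for H2-Eb1, 24 for H2-Ab1, 59 for Lyz2, 23 for Fcer1g and 35 for Il1b. In the control colon the lines of Cd74, Lyz2 and Il1b gave 2, 1 and 1 molecules, and that of Fcer1g could not be resolved.

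The barcode columns in which the genes appeared describe the same sparsity. In the illuminated node H2-Eb1 and H2-Ab1 had counts in 43 of 379 columns each, and these were the same columns, all of which also held Lyz2 (26.5% of the Lyz2 columns). Cd74 shared 0 columns with H2-Eb1 there. In the illuminated colon counts spread over 317 of 382 columns for Fcer1g and over all 382 for Lyz2, so almost any pair shared columns. Columns share molecules and are neither cells nor replicates, and which cells carried the genes was not tested. In RNA of sorted populations, fewer cells of a type and less RNA per cell cannot be told apart.

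Summed, the 6 genes took 0.390% of counts in the illuminated colon (Clopper-Pearson interval 0.331 to 0.457). They took 0.0849% in the control colon (0.0285 to 0.194), 0.0660% in the control node (0.0277 to 0.132) and 0.0632% in the illuminated node (0.0340 to 0.107), and these 3 intervals overlapped one another and lay below that of the illuminated colon. Class II genes summed to 0.0481% in the control node (0.0167 to 0.108) and 0.0159% in the illuminated node (0.00371 to 0.0440). The myeloid genes summed to 0.0179% (0.00227 to 0.0636) and 0.0472% (0.0227 to 0.0868) there, the reverse order, with intervals that overlapped in both cases.

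The light-treated libraries compare the tissues under light, on the contrast that chose the genes. The log2 ratio of colon to lymph node was 3.18 for Cd74 (1.02 to 8.45), 3.33 for H2-Eb1 (1.00 to 9.94) and 2.57 for H2-Ab1 (0.50 to 6.91). Among the myeloid genes it was 1.97 for Lyz2 (0.82 to 3.52), 1.77 for Fcer1g (0.03 to 4.54) and 3.07 for Il1b (0.96 to 7.98). All 6 reached 2-fold, as 13.5% of the 304 genes tested did in that direction, where testing a gene took a sum of 20 molecule-equivalents or more. Among those 304 genes 41 were higher and 59 lower (median -0.34), and scaling by median of ratios gave 69 and 19 (median 0.23). H2-Ab1 at 20.1, Fcer1g at 20.6 and H2-Eb1 at 22.7 lay just above that limit. The T-cell identity list, here over all its 16 genes, moved the other way, at -1.37 (-1.70 to -1.05). The part of that difference in the ratios of the 6 genes was not tested.

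**Figure D2:**
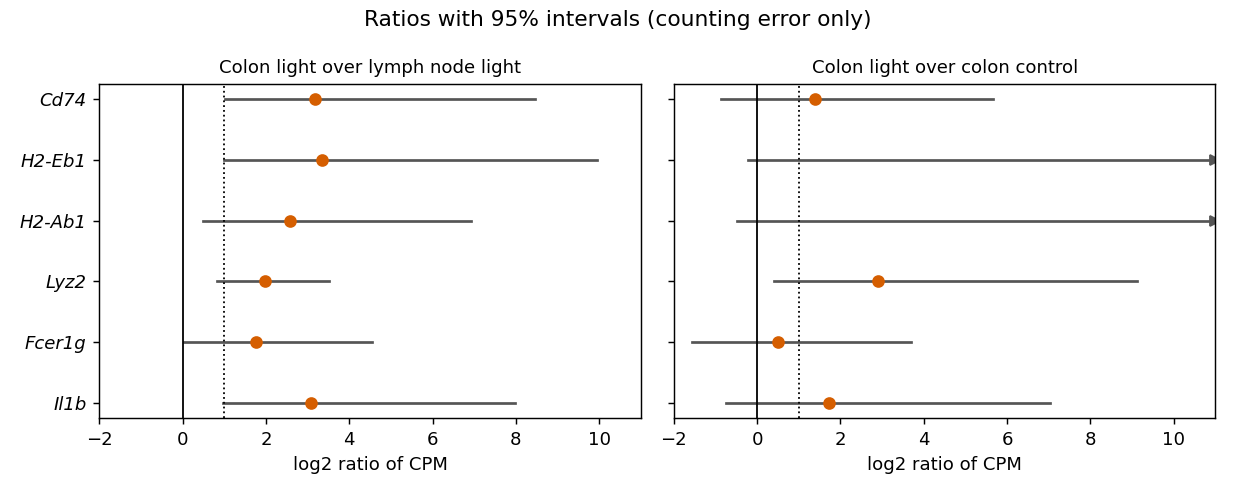
The log2 ratio of CPM for each gene between the light-treated libraries (left) and between light and control in the colon (right), with 95% intervals on molecule-equivalents; the solid line marks no difference, the dotted line 2-fold, and arrows mark intervals with no upper end because the control had no count. All 6 intervals on the left lie above 0, and on the right only that of Lyz2 does.

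Light against control in the colon uses the illuminated library in which the genes were chosen and a control of 6180 molecule-equivalents that the choice did not use. Lyz2 was higher after light by a log2 ratio of 2.91 (0.40 to 9.11), on 0.869 molecule-equivalents in the control. Over barcode columns found in both tables, of which the colon tables share few, the interval included 0 at 2.03 (-0.87 to 10.32). The ratios of Cd74 at 1.39 (-0.86 to 5.66), Il1b at 1.72 (-0.74 to 7.03) and Fcer1g at 0.49 (-1.55 to 3.69) had intervals that included 0. With median-of-ratios scaling, which raised the median of all genes from 2.18 to 3.57, these intervals lay above 0, at 2.79 for Cd74 (0.72 to 7.24), 3.08 for Il1b (0.84 to 8.61) and 1.94 for Fcer1g (0.03 to 5.27). H2-Eb1 was at least 1.15-fold higher against the floor of 3 molecule-equivalents in the control, with a lower interval end of -0.23. H2-Ab1, at 475 CPM after light, did not exceed that floor and gives no fold. Under that scaling the lower ends were 1.36 for H2-Eb1 and 1.11 for H2-Ab1. Of the 5 genes that passed the filter, all through their level after light, Cd74, Lyz2 and Il1b reached 2-fold higher and H2-Eb1 gives only its bound. After light 75.5% of all 208 genes reached that limit and 14.4% were as far below the control, so the count is no result about these genes. That background turned when the illuminated library was thinned to the depth of the control, with 14 genes higher and 26 lower and a median of -2.93 over the 43 genes left. The 12 T-cell identity genes that could be measured gave a list ratio of 2.21 (0.82 to 4.23). That is near the median of 2.18 over all 208 genes, so it is not read as a result about T-cell genes.

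The lymph node libraries and the control libraries gave almost no measurable difference for these genes. Lyz2 was at least 1.12-fold higher after light in the lymph node against the floor, on 6.21 molecule-equivalents against 0, with a lower interval end of -0.58. The other 5 genes lay at or under the floor in both lymph node libraries, and all 6 in both controls, so no fold is given. None of the 6 passed the filter in either comparison, in which 5.32% of 188 genes stood 2-fold or more above the control after light and 5.85% as far below it (10 and 11 genes, or 22 and 6 with median-of-ratios scaling), and in the control colon 29.2% of 89 genes exceeded the control node by 2-fold while 67.4% fell below it by as much.

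Other genes of the class II pathway were examined from a list of 25 genes. Of these 25 genes, 16 had a count in the illuminated colon, 2 in the control colon, 8 in the control node and 10 in the illuminated node. Over all 10288 genes with a count in any library, 6735 had one in the illuminated colon and 2366 in the control colon. In the control node 3636 had one, and in the illuminated node 5766. The numbers of list genes with a count are therefore not read as a result about the list. H2-Aa, the alpha chain that pairs with H2-Ab1, stood at 351 CPM in the illuminated colon and 208 CPM in the control node, with no count in the other libraries. The illuminated colon level is under the control colon floor of 485 CPM. Under light H2-Aa was 2.48-fold higher in the colon than the floor of the lymph node, with a lower interval end of 0.82 (log2). Ifi30, a thiol reductase that opens disulphide bonds of antigens, had 159 CPM in the illuminated colon and no count elsewhere. That level is under the floors of both controls (485 CPM in the colon, 261 CPM in the node). Its lower interval end against the illuminated node was -0.57 (log2). Ctss, the protease that trims the invariant chain, had 311 CPM in the illuminated colon, 454 CPM in the control node and 163 CPM in the illuminated node, so its highest level was in another library. The peptide-loading chain genes H2-DMa and H2-DMb1 and Ciita, the master regulator of class II transcription, stood at 74.0, 66.9 and 14.3 CPM in the illuminated colon, all under its floor. H2-Eb2 went the other way, with no count in the illuminated colon and 434 CPM in the control colon, on 2.68 molecule-equivalents and under the floor there.

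The summed class II list gave a log2 ratio of 2.30 for colon over lymph node under light (1.48 to 3.32), and 1.57 (0.56 to 2.83) without Cd74, H2-Eb1 and H2-Ab1. For light over control it gave -1.30 in the lymph node (-2.54 to -0.19), which without those 3 genes was -1.18 (-2.69 to 0.17), and 2.12 in the colon (0.77 to 4.05), which became 1.503 (-0.16 to 4.06). The lymph node interval also reached 0 under median-of-ratios scaling, at -0.9982 (-2.23 to 0.12), and the colon interval on exactly recovered molecules, at 1.51 (-0.07 to 3.87). Between the control libraries it was -1.10 (-3.19 to 0.45). The median over all 208 genes tested for light over control in the colon was 2.18. The list ratio of 2.12 there is therefore not read as a result about class II genes. Of the list, 3 genes passed the filter in the light-treated libraries, all of them among the 6 described.

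Macrophage and monocyte markers other than Lyz2 were present in the illuminated colon. Of 23 genes, 17 had a count there, 4 in the control colon, 8 in the control node and 10 in the illuminated node. Of all 10288 genes, 6735, 2366, 3636 and 5766 had a count in the same order, so these list counts are not read as a result. Cybb, a subunit of the phagocyte oxidase, stood at 248 CPM in the illuminated colon, and Csf1r, the receptor of the macrophage growth factor, at 129 CPM. C1qa, a complement chain made by macrophages, stood at 103 CPM and Aif1 at 88.3 CPM, and all 4 had no count in any other library. These levels are under the floors of the control colon (485 CPM) and control node (261 CPM), so they show no difference from the controls. Against the illuminated node the interval of Cybb lay above 0 (lower end 0.23, log2). Those of Csf1r, C1qa and Aif1 did not, with lower ends of -0.99, -1.46 and -1.81. Cd14, Cd68, Adgre1, Itgam, Ly86 and Ms4a7 had no count in the illuminated colon. Apoe had 169 CPM there and 31.8 CPM in the illuminated node. Other genes of the list were as high or higher in the lymph node: Lgals3 stood at 229 CPM in the illuminated colon against 303 and 246 CPM in the control node and light libraries, and Ccr2, a chemokine receptor of monocytes and some T cells, at 86.8 against 422 and 293 CPM.

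The macrophage and monocyte list summed to a log2 ratio of 1.04 for colon over lymph node under light (0.44 to 1.70), and to 0.58 (-0.13 to 1.36) without Lyz2. Light over control gave 0.15 in the lymph node (-0.82 to 1.19) and 0.28 in the colon (-0.52 to 1.20), or -0.43 in the colon without Lyz2 (-1.31 to 0.54). The list took 0.228% of counts in the control colon (0.12503 to 0.382) and 0.278% in the illuminated colon (0.228 to 0.335), and control colon over control node was 0.88 (-0.26 to 2.09). These control colon values rested on the list's member of largest count: without it the ratios were 2.96 in the colon (1.17 to 6.06) and -1.71 between controls (-5.02 to 0.23). The colon ratio was also 1.84 (1.06 to 2.78) with median-of-ratios scaling and -1.02 (-1.82 to -0.18) on exactly recovered molecules.

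Genes that act with Fcer1g formed a list of 22 Fc receptor and ITAM adaptor genes. Of these, 13 had a count in the illuminated colon, 1 in the control colon (Fcer1g itself), 5 in the control node and 4 in the illuminated node. The background over all 10288 genes was 6735, 2366, 3636 and 5766 in the same order. Tyrobp, the adaptor most like Fcer1g in role, stood at 219 CPM in the illuminated colon and 18.7 CPM in the illuminated node. Clec7a, the beta-glucan receptor of myeloid cells, had 199 CPM in the illuminated colon and no count elsewhere. That level is under the floors of both controls, and its lower interval end against the illuminated node was -0.16 (log2). Hcst, an adaptor of natural killer and T cells, was highest in the control node at 707 CPM, against 319 CPM in the illuminated colon. The list summed to 1.65 for colon over lymph node under light (0.73 to 2.78), and to 1.56 (0.49 to 2.90) without Fcer1g.

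Genes of the interleukin-1 and inflammasome list were spread more evenly than Il1b. Of 31 genes, 19 had a count in the illuminated colon, 3 in the control colon, 13 in the control node and 11 in the illuminated node. The background over all 10288 genes was 6735, 2366, 3636 and 5766 in the same order. Cxcl2, a chemokine that draws neutrophils, had 175 CPM in the illuminated colon and no count elsewhere. That level is under the floors of both controls, and its lower interval end against the illuminated node was -0.39 (log2). The NF-kB feedback inhibitors Nfkbia and Tnfaip3 stood at 605 and 442 CPM in the illuminated colon against 167 and 58.9 CPM in the illuminated node, with log2 ratios of 1.76 (0.24 to 3.99) and 2.60 (0.45 to 7.39). Nfkbiz had a ratio of 2.68 (0.06 to 10.62). Il18r1, a receptor chain for interleukin-18, stood at 326 CPM in the illuminated colon, 775 CPM in the control node and 516 CPM in the illuminated node. Pycard, the inflammasome adaptor, likewise stood at 212, 445 and 382 CPM. Il1a had no count in any library, and Nlrp3 had 28.6 CPM in the illuminated colon, under its floor. The list summed to 1.04 under light (0.49 to 1.63), and to 0.80 (0.23 to 1.42) without Il1b.

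Markers of B cells and dendritic cells, the other main class II cells, were sparse. Of 22 B-cell and plasma-cell genes, Igkc and Ighm had a count in any library, and Ms4a1, Cd79a and Cd79b had none. The B-cell list took 0.00204% of counts in the illuminated colon (2.36e-05 to 0.0133), 0.00346% in the illuminated node, 0.0324% in the control node and 0.0355% in the control colon. Of 15 dendritic cell genes, 5 had a count in the illuminated colon, where the list took 0.0230% (0.0106 to 0.0436), and 3 in the illuminated node, where it took 0.0211%. None had a count in the control node. The control colon had counts for Ccr7, Irf8 and Flt3 and the highest share, 0.0980% (0.0362 to 0.212), mostly from Ccr7, the receptor that guides dendritic cells and T cells to lymph nodes, at 798 CPM against 0 in the other libraries. The dendritic list was lower after light in the colon, at -1.99 (-3.74 to -0.33). That value rested on Ccr7, which held 4.93 of the list's 6.06 molecule-equivalents in the control colon. The list without Ccr7 was not tested, so no contrast with the class II list is drawn. Irf8, a transcription factor of dendritic cells and other lineages, was the only one above the floor in the illuminated colon, at 113 CPM, against 111 CPM in the illuminated node. Itgax and Clec9a stood at 20.9 and 15.8 CPM in the illuminated colon, and Xcr1, Flt3, Siglech and Cd209a had no count there. Over all 10288 genes, 6735 had a count in the illuminated colon, 2366 in the control colon, 3636 in the control node and 5766 in the illuminated node. The numbers of B-cell and dendritic genes with a count are therefore not read as a result.

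**Figure D3:**
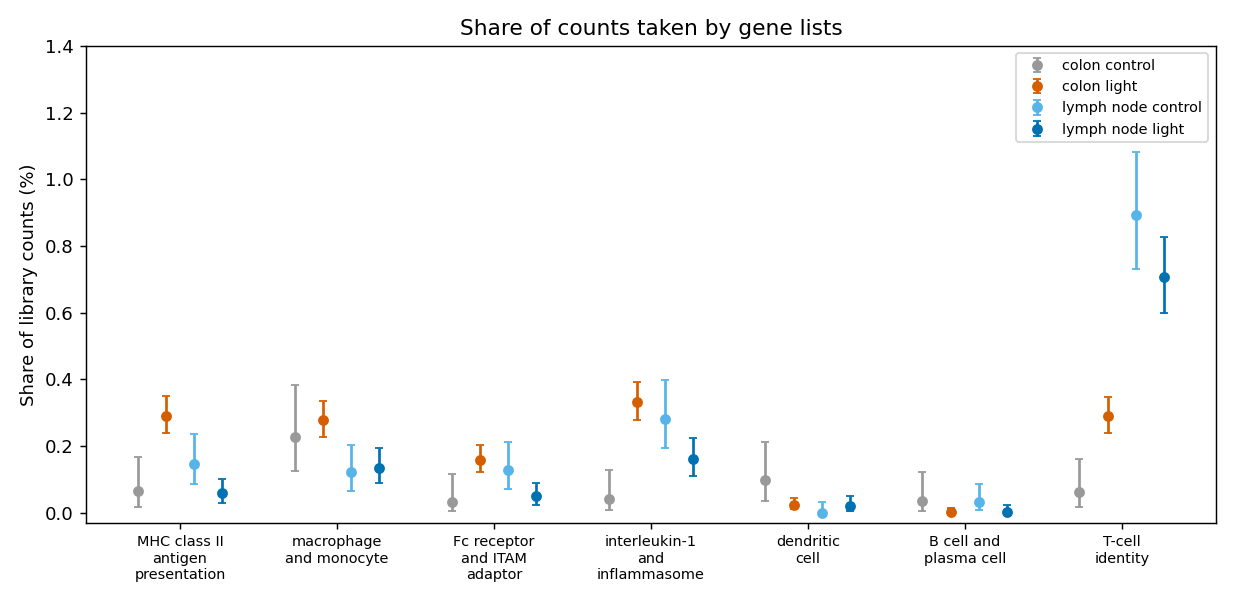
Share of library counts (percent) taken by each gene list in the 4 libraries, with Clopper-Pearson 95% intervals on molecule-equivalents; T-cell identity is drawn over the 12 genes usable in all libraries. The class II list is highest in the illuminated colon at 0.291%, the B-cell list is near 0 there, and T-cell identity genes are highest in the lymph node libraries.

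Genes with a like division over the libraries were sought among 382 genes with at least 20 molecule-equivalents in all. The measure was the share of a gene's summed CPM that fell in each of the 4 libraries, compared with the 6 genes summed, as a distance of 0 for the same shares and 1 for no overlap. The 6 genes summed had 64.6% of their CPM in the illuminated colon, 14.1% in the control colon, 10.9% in the control node and 10.46% in the illuminated node. Nearest were mt-Rnr1, a mitochondrial ribosomal RNA (distance 0.0622), Gramd3 (0.0687), Hspa5, the chaperone of the endoplasmic reticulum (0.102), Nfkbia (0.139) and Btg1, an antiproliferative gene of lymphocytes (0.143). The 6 genes themselves lay at 0.0851 (Cd74) to 0.221 (Fcer1g) from their own sum, farther than mt-Rnr1 did. The division over 4 libraries therefore did not separate them from genes such as mt-Rnr1 and Btg1.

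**Figure D4:**
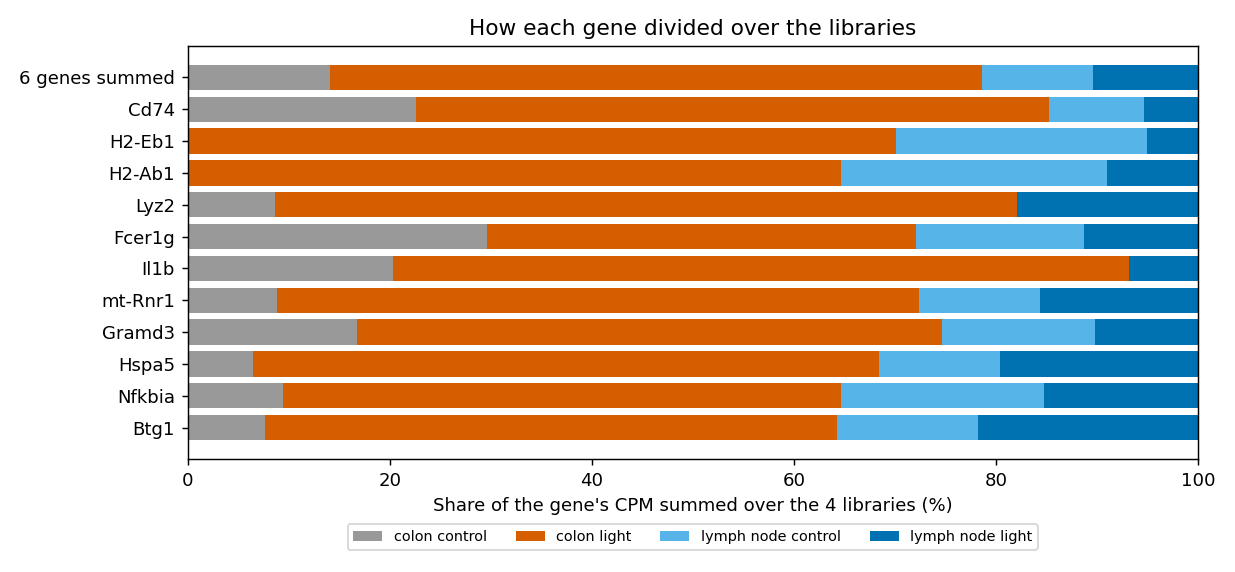
Share of each gene's CPM, summed over the 4 libraries, that fell in each library, for the 6 genes summed, each of the 6, and the 5 genes nearest to their sum; each bar adds to 100%. The illuminated colon part is the widest in every bar, from 42.4% for Fcer1g to 73.4% for Lyz2.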

How the data were processed

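Poly(A) RNA of sorted CD4 T cells was counted in 4 libraries. The deposited tables hold whole-number counts per gene and barcode column. Alignment tools (STAR 2.5.1a), FastQC and mm10 come from the submitters' processing notes. How reads became counts is not stated in those notes. A sample without a group was not used. A nameless total line, 50.0% of the counts of each node table, was left out.

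Columns were overlapping sums of the same molecules, so gene sums were divided by the size-weighted columns per molecule (70.2 and 49.9 in control and illuminated colon, 84.5 and 50.4 in control and illuminated node). Lines repeated between tables (correlation by position above 0.5, and a share of the line above 0.4 missed by the column patterns) were left out: Foxp3 everywhere, and in the control colon Cd4, Cd3d, Cd3e and Cd3g. Log2 ratios used a prior of 0.5 and exact intervals, and the method was tested on simulated data.

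The 6 genes and the 14 gene lists were chosen with earlier results of these data known. Genes named were the 6, list genes with at least 3 molecule-equivalents in a library that were among the 4 of largest summed CPM in their list or had an interval excluding 0, and the 5 of nearest division. Aif1, Apoe, C1qa, Ciita, Clec7a, Clec9a, Csf1r, Cxcl2, Flt3, H2-DMa, H2-DMb1, H2-Eb2, Ifi30, Ighm, Itgax, Lyz1, Nlrp3 and the markers without a count were named after their values were seen. Computation used scipy 1.17.1 and numpy 2.4.6 under Python 3.11.15, with matplotlib 3.10.9 for plots and pandas 2.3.3 for tables.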

Additional observations from a re-analysis of the deposited data

How the results depend on the processing

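With 1 library per group no library could be left out and the spread between animals is unknown. No paired analysis was possible because each group holds 1 library. Between the light-treated libraries the 6 genes kept their direction under every alternative run. The log2 ratios ran from 1.48 to 2.57 for Fcer1g and from 2.55 to 3.87 for H2-Eb1. The genes were chosen by their CPM in these libraries, so the kept direction is a description and supports nothing. The H2-Ab1 interval alone reached 0, at 2.15 (-0.09 to 6.69) with the deeper library thinned. In the colon, over shared barcode columns, light against the control floor gave -0.30 for H2-Eb1 (0.20 as reported) and -0.77 for H2-Ab1 (-0.03). The macrophage and monocyte list in the colon (0.28) was 2.96 without its member of largest count, 1.84 with median-of-ratios scaling and -1.02 on exactly recovered molecules, and between controls (0.88) -1.71 without that member. The fall of the class II list in the lymph node (-1.30) reached 0 at its upper end in 5 of 12 alternatives: 0.11 without its member of largest count, 0.17 without the 3 genes described, 0.12 with median-of-ratios scaling, 0.07 with the deeper library thinned and 0.07 on molecules within 5%. Between controls the class II list (-1.10) was -2.31 (-6.81 to -0.16) without its member of largest count. Median-of-ratios scaling moved the median of all genes from -0.16 to 0.15 in the lymph node and from -2.18 to -1.23 between controls, and a filter of 100 moved the latter to 2.39 over 13 genes.

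Counts of genes at least 2-fold apart moved most with the filter, which sets how many genes are tested. Light against control in the lymph node (10 higher, 11 lower) gave 2469 and 1688 with no filter and 1 and 3 with a filter of 100, 22 and 6 with median-of-ratios scaling, 4 higher with the deeper library thinned, and 18 lower on molecules recovered within 5%, an alternative chosen after seeing the data. The colon comparison (157 higher, 30 lower) gave 3645 and 1806 with no filter, 18 and 7 with a filter of 100, 57 and 19 over shared columns, 77 and 1 on exactly recovered molecules, 14 and 26 when thinned and 19 lower within 5%. Between controls (26 higher, 60 lower) the counts were 1730 and 2886, 7 and 5, 16 and 32, and 0 and 18 under the first 4 of those settings, with 27 lower when thinned and 13 higher within 5%. Between the light-treated libraries (41 higher, 59 lower) they were 2351 and 3038 with no filter, 3 and 2 with a filter of 100, 69 and 19 with median-of-ratios scaling, 18 higher when thinned, 11 lower on exactly recovered molecules and 29 lower with ribosomal and mitochondrial RNA left out of the total. Other than through the filter, the cause was not tested.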

Other observations

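Between the tissues under light, MHC class I genes, which nearly all cells express, were divided differently from the class II genes. The class I list of 17 genes took 0.524% of counts in the illuminated colon (0.455 to 0.600), 0.821% in the control node, 0.761% in the illuminated node and 0.112% in the control colon, so colon over lymph node under light was -0.54 (-0.84 to -0.23). H2-K1 stood at 1104 CPM in the illuminated colon against 2131 CPM in the illuminated node, with a log2 ratio of -0.94 (-1.58 to -0.32). B2m, the light chain of class I, stood at 1439 and 1988 CPM. For light over control in the colon the lists were alike. The ratio was 2.20 (1.15 to 3.56) for class I and 2.12 (0.77 to 4.05) for class II, near the median of 2.18 over all genes tested.

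Markers of further cell types were sparse. Over all 10288 genes, 6735 had a count in the illuminated colon, 2366 in the control colon, 3636 in the control node and 5766 in the illuminated node. The numbers of marker genes with a count below are not read as a result. Of 14 neutrophil genes, 2 had a count in the control colon and 0 in the other libraries, although Lyz2 and Il1b are also neutrophil products, and a count of 0 allows up to 76.4 CPM in the illuminated colon by the floor of 3 molecule-equivalents. Of 13 mast cell and basophil genes 1 had a count in the illuminated colon and 1 in the illuminated node. Of 20 epithelial genes, Lyz1 alone had a count, in the illuminated colon. Of 17 stromal and endothelial genes 5 had a count in the illuminated colon, together 0.0129%, and Pdgfrb alone, at 260.1 CPM, in the illuminated node. Of 5 red blood cell genes 2 had a count, in the illuminated colon. The natural killer and innate lymphoid list of 17 genes, which also holds Fcer1g and Tyrobp, took between 0.112% and 0.128% of counts in 3 libraries, and 0.0643% in the illuminated node. Il1rl1, the interleukin-33 receptor, stood at 802 CPM in the control colon and 126 CPM in the control node, with no count in the light-treated libraries.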
